A study of Mus musculus with 12 samples.

Results

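Hepatic stellate cells are the vitamin A-storing pericytes of the liver sinusoid. In injured liver they turn into contractile, matrix-secreting myofibroblasts, a change driven by transforming growth factor beta, whose dimeric ligands are secreted in a latent form and signal through serine/threonine kinase receptors to SMAD proteins, and by platelet-derived growth factors, which act through receptor tyrosine kinases. The 10 genes described here stand for these steps: the ligands Tgfb1, Tgfb2 and Tgfb3, the receptors Pdgfra and Pdgfrb, the contractile and filament genes Acta2, Des and Vim, the matricellular gene Ctgf (now Ccn2) and the collagen cross-linking enzyme gene Lox. Every probe carrying 1 of these names on the array was taken, which gave 16 of the 41174 probes and 10 of 27670 gene or transcript names. Of these 16 probes 12, covering 9 genes, passed the filter on dim probes and were among the 25297 tested. None of the 10 genes marks stellate cells alone: vascular smooth muscle also makes Acta2 and Des, and many mesenchymal and blood cells make Vim.

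Liver RNA came from 12 male C57BL/6 mice, 1 array per mouse, in a study of Sirt1, which encodes an NAD-dependent deacetylase, in metabolic disease brought on by diet. Wild-type mice (SIRT1+/+, WT) and heterozygotes (SIRT1+/-, Het) were kept on low-fat or high-fat food over 34 weeks, with 3 mice in each of the 4 groups. The deleted part of Sirt1, the composition of the diets and the age of the mice are not given in the sources used here. Over both diets the Sirt1 probes stood in Het at 64.1% and 73.8% of WT (log2 differences -0.64 ± 0.09 and -0.44 ± 0.09, SE; exact permutation p = 0.005 for each, limma adjusted p = 0.36 and 0.94), and whether they lie in the deleted part is not known. The share of spots well above background ran from 58.0% to 71.6% over the arrays. The hepatocyte gene Alb, which encodes albumin, gave scaled signals of 322000 to 732000 on the 12 arrays.

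Values below are scaled signals, the processed intensity of a probe divided by the 75th percentile of its array and multiplied by 1000. They allow comparison of 1 probe across mice, not of different probes. Differences are on the log2 scale with their standard error (SE) from a limma fit over the 4 groups, and a probe was called at a Benjamini-Hochberg adjusted p under 0.05 over all probes tested. No high-fat array shared a slide or a scan day with a low-fat array. Diet and these batches thus cannot be told apart in any difference between diets. In whole tissue, fewer cells of a type and less RNA per cell cannot be told apart either.

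The sequences behind the leading results are shown to make clear what the arrays read. The Tgfb1 probe, printed in 10 spots on each array, lies at chr7:22478890-22478949 on the plus strand (mm7, per the file headers). The brightest Acta2 probe spans a splice junction between chr19:33949738-33952992 on the minus strand. No letters are marked in either sequence.
Tgfb1 probe: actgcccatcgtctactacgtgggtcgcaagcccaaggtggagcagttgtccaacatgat
Acta2 probe: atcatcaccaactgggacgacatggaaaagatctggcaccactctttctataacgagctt

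Over both genotypes, 7 of the 12 tested probes were called with diet, and all 7 were higher on the high-fat diet. They belonged to Tgfb1, Tgfb2, Pdgfrb, Acta2 (2 probes), Des and Ctgf, with log2 differences from 0.46 to 1.39. Of all probes tested, 29.4% were called in this comparison and 12.3% were called as higher. The median difference of the 12 probes was 0.52, against -0.03 for all probes. One of them, the fourth Acta2 probe, passed the filter through the Het high-fat group alone, where it is highest, so that its sign is partly set by the filter, and without it the median of the other 11 was 0.50. Of the called probes of the whole array 41.9% were higher, and this share was 51.3% after quantile normalization and 61.7% with scaling to the median.

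**Figure D1:**
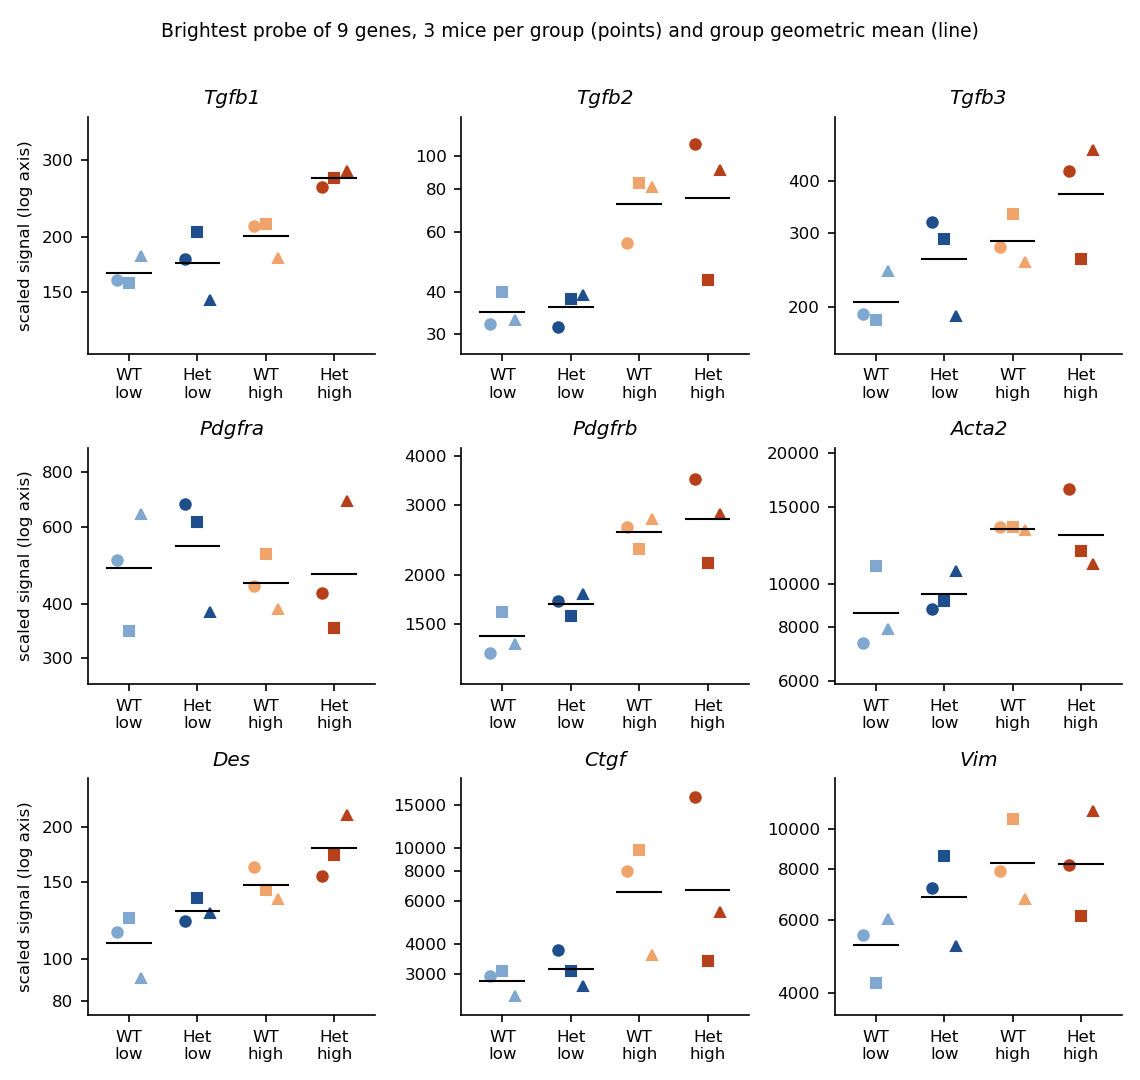
Scaled signal on a log axis for the brightest probe of 9 genes, by group; points are the 3 mice of a group (circle, square and triangle for replicates 1, 2 and 3) and the line is the group's geometric mean. The high-fat points of Pdgfrb, Tgfb2 and Acta2 lie above all low-fat points, while those of Pdgfra overlap fully.

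Tgfb1 encodes the isoform of the ligand best known in liver fibrosis. Its scaled signals were 160, 157 and 181 in the WT low-fat mice, 178, 206 and 144 in the Het low-fat mice, 212, 215 and 179 in the WT high-fat mice and 261, 274 and 284 in the Het high-fat mice. The 3 Het high-fat mice were the highest of all 12, and the WT high-fat mice overlapped both low-fat groups. The difference with diet was 0.47 ± 0.10 over both genotypes (adjusted p = 0.0080, exact permutation p = 0.010), 0.65 ± 0.14 in Het (adjusted p = 0.017) and 0.28 ± 0.14 in WT (adjusted p = 0.24). The call in Het was lost without Het high-fat replicate 1 (adjusted p = 0.0502) or Het low-fat replicate 1 (adjusted p = 0.0508). The effect of diet in Het minus that in WT was 0.37 ± 0.20, and this interaction was not called (adjusted p = 0.96).

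Tgfb2 encodes a second isoform, which needs the co-receptor betaglycan to bind its receptor well (probe at chr1:186149057-186149116, minus strand). Low-fat signals were 32.2, 39.9 and 33.0 in WT and 31.5, 37.9 and 39.0 in Het, and high-fat signals were 55.5, 83.7 and 81.3 in WT and 109, 43.2 and 91.5 in Het. Each of the 6 high-fat mice lay above each of the 6 low-fat mice, as held for 4 of the 12 probes and for 5.38% of all probes. The difference was 1.06 ± 0.21, or 2.09-fold, over both genotypes (adjusted p = 0.0052, exact permutation p = 0.005, the smallest that 400 arrangements allow). It was 1.05 ± 0.30 in WT (adjusted p = 0.063) and 1.07 ± 0.30 in Het (adjusted p = 0.038). The call in Het was lost without Het high-fat replicate 1 or 3, any 1 of the Het low-fat replicates, or WT low-fat replicate 1 (adjusted p from 0.051 to 0.14). It was also lost with the replicate number as a block (adjusted p = 0.064).

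Tgfb3, the third ligand gene (chr12:84058334-84058393, minus strand), was not called. It gave 193, 186 and 244 in WT and 319, 290 and 191 in Het on the low-fat diet, and 278, 334 and 256 in WT and 421, 260 and 473 in Het on the high-fat diet. High-fat and low-fat mice overlapped over both genotypes, while within WT every high-fat mouse was above every low-fat mouse. The difference over both genotypes was 0.50 ± 0.18 (adjusted p = 0.055, exact permutation p = 0.030). Without Het high-fat replicate 2, the lowest of its group, it was 0.63 and was called (adjusted p = 0.017). It was also called after quantile normalization, scaling to the median, normexp background correction or with the slide as a random block, with differences of 0.45 to 0.57. The random block called 50.6% of all probes, against 29.4% without it.

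The receptor genes went apart. Pdgfrb encodes the receptor for PDGF-BB and PDGF-DD, by which activated stellate cells proliferate and migrate. Its probe (chr18:61474380-61474439, plus strand) gave 1270, 1610 and 1340 in the WT low-fat mice, 1720, 1570 and 1790 in the Het low-fat mice, 2640, 2330 and 2770 in the WT high-fat mice and 3490, 2140 and 2840 in the Het high-fat mice. The lowest high-fat mouse, at 2140, was above the highest low-fat mouse, at 1790. The difference was 0.80 ± 0.12, or 1.74-fold (adjusted p = 0.0017), with 0.88 ± 0.18 in WT and 0.71 ± 0.18 in Het (adjusted p = 0.024 in each). It was the 1 member called in WT, where 5.69% of all probes were called and 2.42% as higher. This call in WT was lost without any 1 of 5 of the 6 WT arrays (adjusted p from 0.0502 to 0.0777; it was kept without low-fat replicate 2). The call in Het was lost without Het high-fat replicate 1 (adjusted p = 0.089), Het low-fat replicate 1 (0.067) or Het low-fat replicate 2 (0.072).

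Pdgfra encodes the receptor that binds every PDGF chain but PDGF-D, and in mouse liver it is carried by quiescent stellate cells and by fibroblasts. Its 10-spot probe (chr5:74616116-74616175, plus strand) read 504, 346 and 640 in WT and 677, 614 and 382 in Het on the low-fat diet, and 438, 519 and 389 in WT and 422, 352 and 687 in Het on the high-fat diet. All groups overlapped, and the WT high-fat mice spread least, from 389 to 519. The difference with diet was -0.16 ± 0.21 over both genotypes, with a 95% interval of -0.64 to 0.31 (adjusted p = 0.59). A dimmer Pdgfra probe at chr5:74581841-74581900 was well above background on 1 of 12 arrays and was not tested. For the tested Pdgfra probe the median SD of the 10 spots on an array was 0.04 on the log2 scale. The SD between the arrays of a group was 0.42. The latter holds differences between mice and those of RNA preparation, labelling and hybridization, which spots on 1 array do not show. For Tgfb1 these SDs were 0.05 and 0.16.

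Acta2 encodes alpha smooth muscle actin, the classic marker of the stellate-derived myofibroblast, and has 5 probes on the array. The brightest, the junction probe shown above, gave 7350, 11000 and 7880 in the WT low-fat mice and 8800, 9160 and 10700 in the Het low-fat mice. On the high-fat diet it gave 13500, 13500 and 13300 in WT and 16500, 11900 and 11100 in Het. All 6 high-fat mice were above all 6 low-fat mice, though by a narrow margin, 11100 against 11000. The difference was 0.54 ± 0.13, or 1.46-fold (adjusted p = 0.011, exact permutation p = 0.005), and in neither genotype alone was it called (0.64 ± 0.18 in WT, adjusted p = 0.065, and 0.45 ± 0.18 in Het, adjusted p = 0.12).

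The second Acta2 probe, printed in 10 spots (chr19:33942803-33942862, minus strand), showed a larger difference. It read 297, 385 and 211 in WT and 231, 270 and 321 in Het on the low-fat diet, and 571, 697 and 485 in WT and 947, 461 and 1830 in Het on the high-fat diet. The groups by diet did not overlap, and Het high-fat replicate 3 stood far above its group. The difference was 1.39 ± 0.29, or 2.62-fold (adjusted p = 0.0062), and without that mouse it was 1.14 (adjusted p = 0.0057). In Het it was 1.77 ± 0.41 (adjusted p = 0.019), a call lost without replicate 1 of either diet (adjusted p = 0.067 in both cases), and in WT 1.0 ± 0.41 (adjusted p = 0.15). The spots of this probe on 1 array had a median SD of 0.05 and the arrays of a group an SD of 0.57.

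The remaining Acta2 probes were dim. The third (chr19:33941939-33941997) and the fourth (chr19:33942440-33942499) gave differences of 0.38 ± 0.32 (adjusted p = 0.39) and 0.81 ± 0.44 (adjusted p = 0.19), with scaled signals from 21.0 to 95.8 and from 11.9 to 94.2. Both were highest in Het high-fat replicate 3. The fifth (chr19:33954688-33954747) was well above background on 1 array alone, Het low-fat replicate 1, at 36.1, and was not tested. Thus 2 of 4 tested Acta2 probes were called. The fourth was well above background on 3 of 3 arrays of the Het high-fat group alone, against 2 in the WT high-fat group and 1 in each low-fat group, so that it entered the tests only through the group where it is highest and its difference supports nothing.

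**Figure D2:**
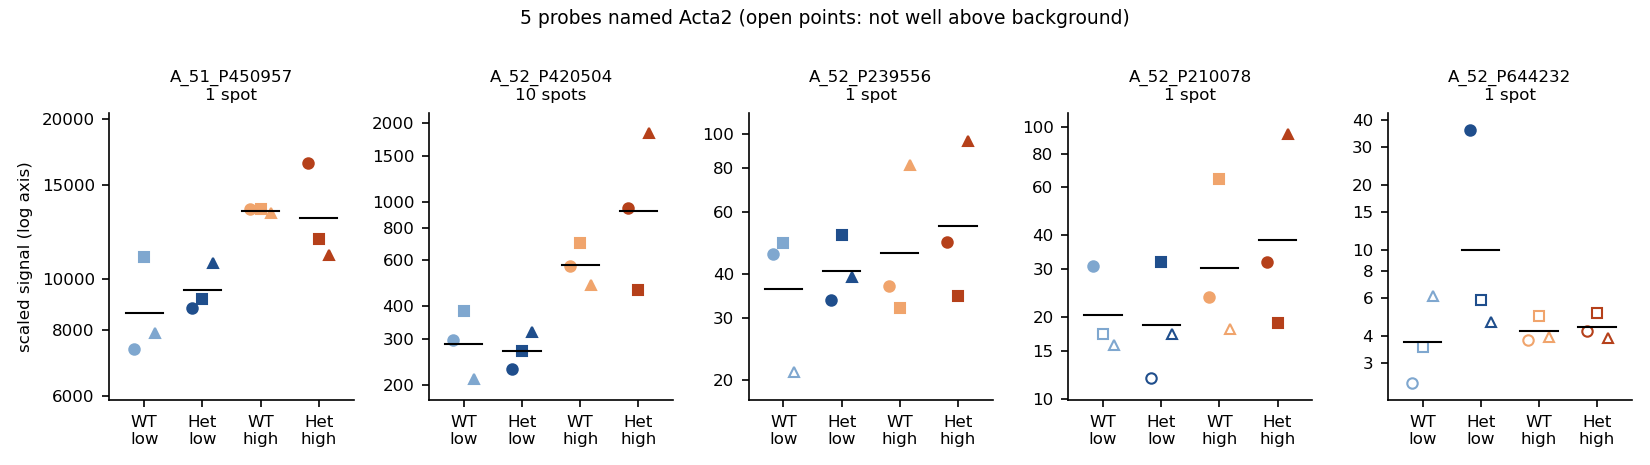
Scaled signal on a log axis for the 5 Acta2 probes by group, with 1 point per mouse (circle, square and triangle for replicates 1, 2 and 3), the group's geometric mean as a line and open points where the probe was not well above background. The first 2 probes separate the diets; on the next 2 the groups overlap and Het high-fat replicate 3 is the highest mouse.

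Des encodes desmin, the muscle-type intermediate filament protein used to stain stellate cells in rodents. Its 10-spot probe (between chr1:75593023-75593248, plus strand) gave 115, 124 and 90.4 in the WT low-fat mice, 122, 138 and 127 in the Het low-fat mice, 162, 144 and 137 in the WT high-fat mice and 155, 173 and 213 in the Het high-fat mice. The lowest high-fat mouse, at 137, fell just under the highest low-fat mouse, at 138. The difference was 0.46 ± 0.11, or 1.37-fold (adjusted p = 0.012, exact permutation p = 0.005). It was 0.44 ± 0.16 in WT (adjusted p = 0.11) and 0.47 ± 0.16 in Het (adjusted p = 0.065).

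Vim encodes vimentin, the intermediate filament protein of mesenchymal cells, and was not called. Its brighter probe (chr2:13521763-13521822, plus strand) read 5540, 4230 and 6040 in WT and 7180, 8620 and 5200 in Het on the low-fat diet, and 7920, 10600 and 6760 in WT and 8200, 6130 and 11100 in Het on the high-fat diet. Within WT the diets did not overlap, and within Het they did. The difference was 0.47 ± 0.19 over both genotypes (adjusted p = 0.080, exact permutation p = 0.055). Without Het high-fat replicate 2 it was 0.57 and was called (adjusted p = 0.043), as it was with the slide as a random block (0.44). With that block 50.6% of all probes were called, against 29.4% without it. The other Vim probe (chr2:13516297-13516356) was not well above background on any array.

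Ctgf encodes connective tissue growth factor, a secreted matricellular protein induced by transforming growth factor beta. Its probe (chr10:24349402-24349461, plus strand) gave 2940, 3100 and 2440 in WT and 3770, 3100 and 2690 in Het on the low-fat diet, and 8020, 9770 and 3590 in WT and 16100, 3390 and 5430 in Het on the high-fat diet. Low-fat mice lay close together and high-fat mice spread over more than 4-fold, with WT replicate 3 and Het replicate 2 inside the low-fat range. The difference was 1.15 ± 0.35, or 2.22-fold (adjusted p = 0.033, exact permutation p = 0.010). This call was lost without any 1 of 7 arrays: WT high-fat replicates 1 and 2, WT low-fat replicates 1 and 3, or any Het low-fat replicate, with adjusted p from 0.051 to 0.072. It was also lost when no filter on dim probes was applied (adjusted p = 0.0677). Without Het high-fat replicate 1, the highest mouse, the difference was 0.83 (adjusted p = 0.044).

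Lox encodes lysyl oxidase, which cross-links collagen and elastin. Its probe (chr18:52894559-52894618, minus strand) was well above background on 1 of 12 arrays, Het high-fat replicate 3, at 26.8, and read 3.58 to 8.92 on the others. It was not tested, and no level can be given for the remaining mice.

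In WT, 1 of 12 probes was called with diet. In Het 4 were, those of Tgfb1, Tgfb2, Pdgfrb and the 10-spot Acta2 probe, all higher, where 14.8% of all probes were called and 6.79% as higher. With no filter on dim probes the calls of Pdgfrb in WT (adjusted p = 0.066) and of Tgfb2 and Pdgfrb in Het (0.087 and 0.062) were lost, and with the trend on GC content and brightness removed that of Tgfb1 in Het (0.090). A fit of only the 2 Het groups called none of the 4 (limma adjusted p from 0.055 to 0.092). Every high-fat mouse was above every low-fat mouse on 8 of 12 probes in WT, against 11.5% of all probes, and on 6 of 12 in Het, against 16.6%. With 3 mice against 3 an exact permutation test cannot go below p = 0.1. The interaction of genotype and diet was called for 0 of 12 probes and for 0 of 25297 in limma, with 0 and 1343 at an unadjusted p under 0.05, so the effect of diet was not shown to differ between genotypes for any member.

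**Figure D3:**
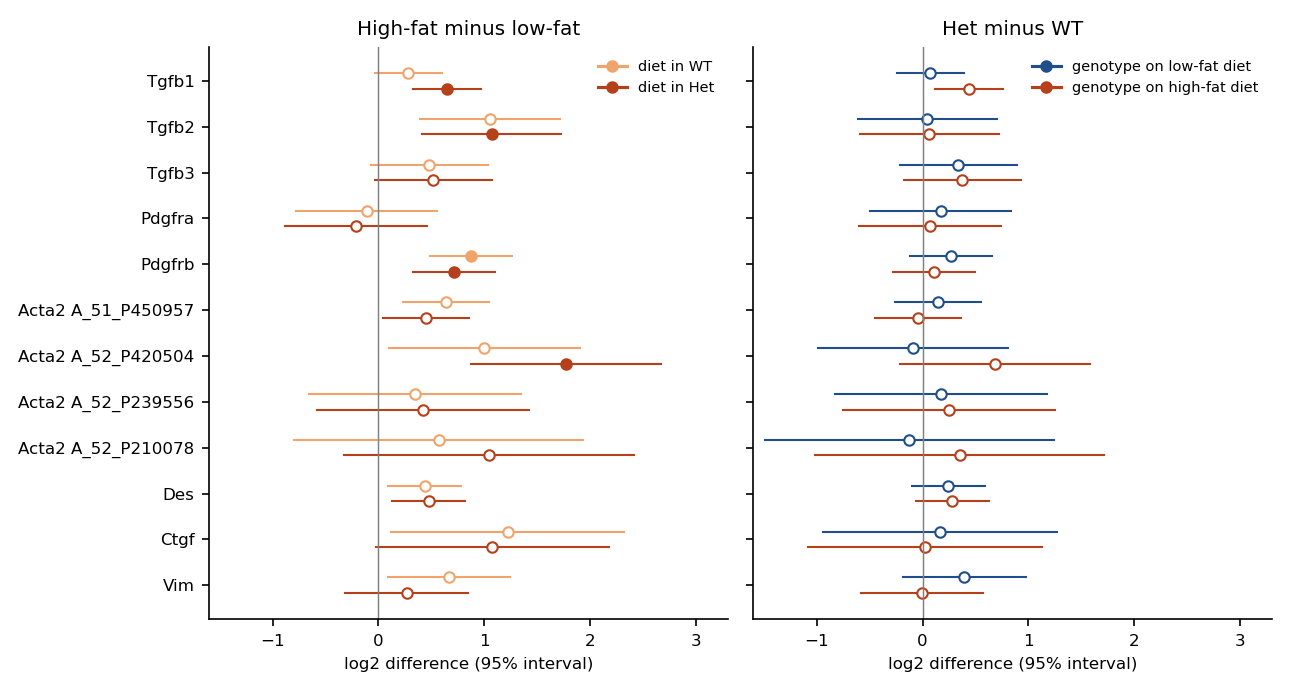
Log2 differences with 95% intervals for the 12 tested probes, high-fat minus low-fat within each genotype on the left and Het minus WT within each diet on the right; filled points were called at an adjusted p under 0.05. The diet differences lie above 0 for every probe but that of Pdgfra, with 1 call in WT and 4 in Het, and no genotype difference is called.

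Sirt1 genotype was called for none of the 12 probes under high-fat feeding, under low-fat feeding or over both (limma, 0 of 25297 probes in each; 2288, 582 and 1300 probes had an unadjusted p under 0.05, and 1, 0 and 2 of the 12). Tgfb1 had the lowest adjusted p of the 12 on the high-fat diet. Its 3 Het mice, at 261, 274 and 284, were above its 3 WT mice, at 179, 212 and 215, a separation in that direction that 9.67% of all probes showed. The difference was 0.44 ± 0.14 (adjusted p = 0.43, exact permutation p = 0.1), and on the low-fat diet it was 0.07 ± 0.14. Slide 2 held all 3 Het high-fat mice and 1 WT high-fat mouse, at 179. Slide 3 held all 3 WT low-fat mice and 1 Het low-fat mouse, at 178, and each other slide held 1 genotype. With the slide as a block, the estimate thus rested on 1 WT high-fat mouse and 1 Het low-fat mouse. The Tgfb1 difference over both diets was then 0.36, against 0.26 ± 0.10 without the block (adjusted p = 0.97). As single mice and slides cannot be told apart here, nothing is read from the larger value. Over both diets all 12 genotype differences were above 0, from 0.05 to 0.36, with a median of 0.19 against 0.01 for all probes, but the probes share the same mice. For the fourth Acta2 probe a sign in favour of Het was partly set by the filter, and the median of the other 11 was 0.20. Other scalings left 10 to 12 of the 12 above 0, and leaving out Het high-fat replicate 1 or 3 left 9. Those of Tgfb1 and Des (0.26 ± 0.11) had exact permutation p of 0.045 and 0.025 and adjusted p of 0.97. The 95% intervals of the 12 reached from -0.85 to 1.08, and that of Pdgfrb was -0.08 to 0.46.

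The mice of the Het high-fat group were not alike. Het high-fat replicate 3 was the highest of 12 mice on 8 of 12 probes and Het high-fat replicate 1 on the other 4, Tgfb2, Pdgfrb, the brightest Acta2 probe and Ctgf. The 8 include the fourth Acta2 probe, which passed the filter through the Het high-fat group alone. Counting only the brightest probe of each gene, replicate 3 was the highest for 5 genes and replicate 1 for 4. The Acta2 probes disagreed on replicate 3, which was the lowest high-fat mouse on the brightest of them, at 11100. Over all tested probes these mice were highest on 6.40% and 17.7%. Het high-fat replicate 2 was the lowest of its group for Tgfb2, Tgfb3, Pdgfra, Pdgfrb, Ctgf and Vim. The same held for the 10-spot, the third and the fourth Acta2 probes. The 3 WT high-fat mice were the highest for no member. Without Het high-fat replicate 3, again 7 of 12 probes were called with diet over both genotypes, and without Het high-fat replicate 1 also 7.

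Other genes of the pathway were read against the whole array, where 29.4% of probes were called with diet over both genotypes and 12.3% as higher. Over the pathway and stellate cell lists, 30 of 91 measured genes rose and 3 fell, so that 36.3% were called and 33% as higher. The share called was thus near that of the whole array, while more of the calls were in the higher direction; as the lists were chosen with results of these data known, nothing is read from this. Of 14 measured genes for latency and activation of transforming growth factor beta, 6 rose with the high-fat diet over both genotypes and 0 fell, with a median of 0.34. They were the latent binding protein genes Ltbp1 (0.79 ± 0.15, adjusted p = 0.0041), Ltbp2 (0.83 ± 0.18) and Ltbp3 (0.55 ± 0.17), Thbs1 (1.45 ± 0.34), whose product thrombospondin can activate the latent complex, the integrin subunit gene Itgav (0.33 ± 0.09) and Emilin1 (0.49 ± 0.10). Thbs1 was well above background on 6 high-fat arrays but 2 low-fat arrays, at 39.5 to 107 against 13.9 to 58.5. It passed the filter through the high-fat groups alone, and its difference is taken against arrays mostly at background. Of the 14 genes 2, Thbs1 among them, passed in this way, so that their signs are partly set by the filter. The median without them was 0.30. For 3 of the 6 genes the rise rests on the brightest probe alone. Second probes of Ltbp1 and Ltbp3 gave -0.12 ± 0.24 and 0.10 ± 0.20, and other probes of Itgav gave -0.22 ± 0.17 and 0.14 ± 0.18, none of them called. Ltbp1 read 56.4 to 68.2 in WT and 71.2 to 85.8 in Het on the low-fat diet, and 107 to 120 in WT and 101 to 194 in Het on the high-fat diet, with no overlap of the diets.

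Of 18 receptor and SMAD genes, 1 rose and 2 fell, fewer than the 29.4% called over the whole array, with a median of -0.17. Tgfbr2, the receptor that binds the ligand first, rose by 0.74 ± 0.15 (adjusted p = 0.0050), from 3090 to 4990 on the low-fat diet to 5620 to 8220 on the high-fat diet, and a second probe gave 1.30 ± 0.34. Smad7, which encodes the inhibitory SMAD that blocks the receptor, fell by 1.50 ± 0.18 (adjusted p = 0.00059). Its signals were 1790 to 3630 in the 6 low-fat mice and 675 to 1010 in the 6 high-fat mice. Smurf1, a ubiquitin ligase that Smad7 brings to the receptor, gave -0.42 ± 0.15 (adjusted p = 0.04998), while another of its probes gave 0.27 ± 0.13 and was not called.

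Of 16 target genes of the pathway, 6 rose and 1 fell, with a median of 0.30. The lowest p-values among those that rose were those of Col1a1 (2.07 ± 0.34), Timp3 (0.69 ± 0.14) and Ltbp2. The 1 that fell was Smad7, which the pathway itself induces and which stands in both lists. Pmepa1 and Col1a2, also among those that rose, gave 0.62 ± 0.14 and 1.20 ± 0.30.

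Ligands of the Pdgfrb and Pdgfra receptors rose for 3 of 4 genes, Pdgfa (0.63 ± 0.10, adjusted p = 0.0022), Pdgfc (0.68 ± 0.14) and Pdgfb (0.58 ± 0.16). Pdgfa read 4570 to 6040 in the low-fat mice and 7010 to 9290 in the high-fat mice. While Lox itself was too dim to test, 2 of 4 of its relatives rose, Loxl1 (1.09 ± 0.21, adjusted p = 0.0040) and Loxl2 (1.04 ± 0.22, adjusted p = 0.0069), and 0 fell. Loxl1 was 105 to 228 in the low-fat mice and 220 to 494 in the high-fat mice. Of 3 measured relatives of Ctgf, 2 rose, Ccn5 (0.89 ± 0.23) and Ccn4 (0.41 ± 0.12). Ccn5 passed the filter through the Het high-fat group alone and was well above background on 1 low-fat array, so that its sign is partly set by the filter. The median of the list was 0.41, and 0.29 without Ccn5.

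Of 13 contractile genes measured beside Acta2, 3 rose and 1 fell, with a median of 0.09. The share called was close to the 29.4% of the whole array. The tropomyosin gene Tpm1 rose by 1.21 ± 0.10 (adjusted p = 0.00028), from 2530 to 3490 in the low-fat mice to 5930 to 9370 in the high-fat mice, and its other probes gave 0.61 ± 0.11 and 1.22 ± 0.12. Tpm2 (0.55 ± 0.15) and the calponin gene Cnn2 (0.48 ± 0.10) rose too. The caldesmon gene Cald1 fell by 0.75 ± 0.23 (adjusted p = 0.033), and by 0.66 on a second probe. Of 3 intermediate filament relatives of Des and Vim, 0 were called (limma; 2 had an unadjusted p under 0.05).

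**Figure D4:**
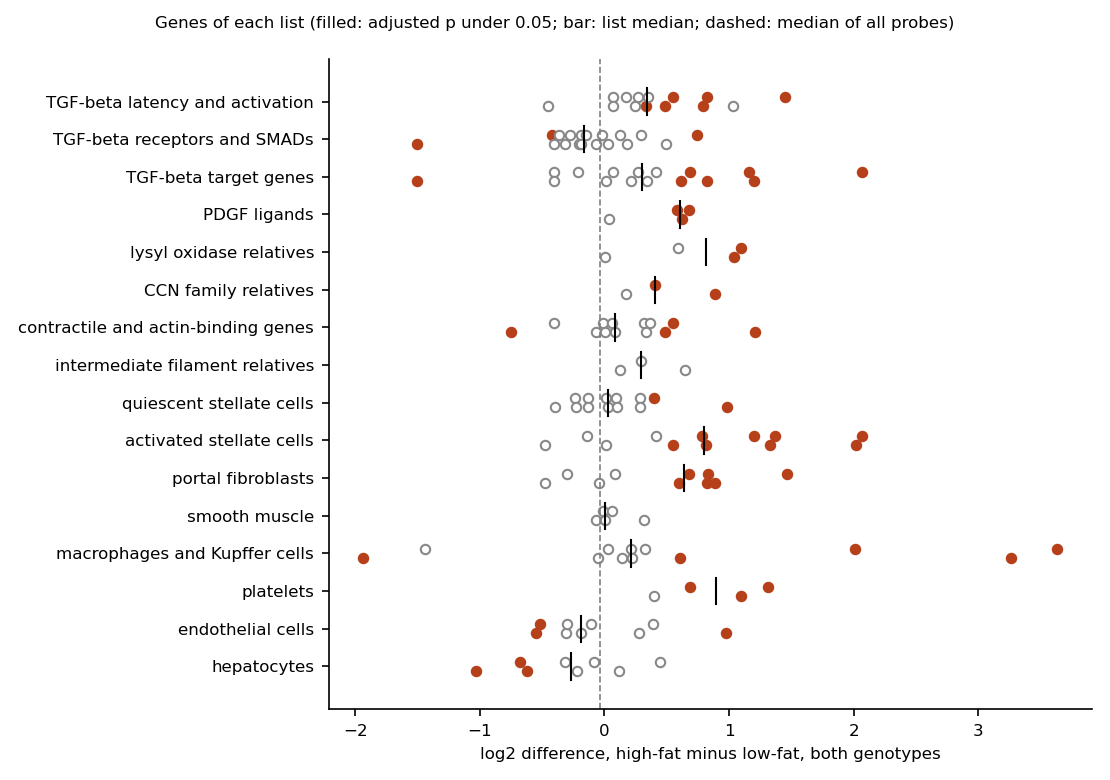
Log2 difference with diet over both genotypes for each measured gene of 16 lists, 1 point per gene; filled points were called, bars are list medians and the dashed line is the median of all probes at -0.03. Among the stellate lists, the activated one has a median of 0.80 and the quiescent one of 0.03; genes that stand in more than 1 list appear in each.

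Markers of cell states and cell types were read in the same way, beside the 29.4% of all probes called. Sums over a list add different probes and follow the brightest of them. Of 12 measured genes of activated stellate cells, 8 rose and 0 fell, with a median of 0.80, led by Lgals1 (2.02 ± 0.32), Col1a1 (2.07 ± 0.34), Col3a1 (1.33 ± 0.25) and Lum (0.78 ± 0.17). Their summed signal was 14300 to 23600 in WT and 14500 to 28600 in Het on the low-fat diet, and 46100 to 51700 in WT and 54600 to 82600 in Het on the high-fat diet, without overlap. The Lgals1 probe made up 25.2% to 66.3% of this sum. Of 13 genes of quiescent stellate cells, 2 rose and 0 fell, with a median of 0.03. Colec11, which encodes a secreted lectin, was among them (0.40 ± 0.10). The quiescent sum was 56000 to 64100 in WT and 54800 to 74100 in Het on the low-fat diet, and 65900 to 67900 in WT and 62800 to 66100 in Het on the high-fat diet.

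Other cell types that make these 10 genes were read by lists of their own. Of 10 portal fibroblast genes, 6 rose and 0 fell, with a median of 0.64, including Dpt (1.47 ± 0.30), Fbln2 (0.82 ± 0.17), Entpd2 (0.89 ± 0.20) and Mfap4 (0.68 ± 0.17). A second probe of Fbln1, also in that list, fell while its brightest rose (-0.87 ± 0.13 against 0.60 ± 0.19). The portal fibroblast sum was 2600 to 3180 in WT and 2450 to 3510 in Het on the low-fat diet, and 4110 to 4770 in WT and 3590 to 6280 in Het on the high-fat diet. Of 5 smooth muscle genes, 0 were called (limma; 1, Actg2, had an unadjusted p under 0.05) and the median was 0.00, with sums of 1610 to 2140 and 1700 to 1810 on the low-fat diet and 1870 to 2490 and 1900 to 2480 on the high-fat diet, in WT and Het. The Actg2 probe made up 76% to 86.7% of these sums. Of 5 mesothelial genes 2 rose, Wt1 (1.04 ± 0.28) and Gpm6a (0.72 ± 0.19), with sums of 385 to 985 and 853 to 1650 on the low-fat diet and 1150 to 1300 and 693 to 1140 on the high-fat diet. The part of these cells in the differences of the 10 genes was not tested.

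Platelets store transforming growth factor beta and PDGF, and 3 of 4 platelet genes rose, Pf4 (1.31 ± 0.22), Itga2b (0.68 ± 0.17) and Gp1ba (1.10 ± 0.33). Gp1ba passed the filter through the high-fat groups alone, so that its sign is partly set by the filter. The median of the list was 0.89, and 0.68 without Gp1ba. Pf4 made up 60.8% to 87.2% of the summed signal of the platelet genes. Their sums were 563 to 672 in WT and 550 to 923 in Het on the low-fat diet, and 1130 to 1990 in WT and 1060 to 1890 in Het on the high-fat diet. Of 12 macrophage genes, 4 rose, among them Mmp12 (3.27 ± 0.34), Gpnmb (3.63 ± 0.42) and Trem2 (2.01 ± 0.29), and 1 fell, Cd163 (-1.94 ± 0.57). Gpnmb passed the filter through the high-fat groups alone, so that its sign is partly set by the filter, and was well above background on 3 low-fat arrays. The macrophage sums overlapped, at 130000 to 160000 and 96100 to 181000 on the low-fat diet and 140000 to 161000 and 108000 to 179000 on the high-fat diet, in WT and Het. Of 5 leukocyte genes Coro1a rose (0.47 ± 0.15) and Cd3e fell (-1.02 ± 0.21), with sums of 3930 to 5950 and 3460 to 5620 on the low-fat diet and 4020 to 5120 and 4910 to 5740 on the high-fat diet. What these cells contributed to the signals of Tgfb1, Vim and the other members was not tested.

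Of 9 endothelial and 8 hepatocyte genes 3 each were called, shares close to the 29.4% of the whole array. Among the endothelial genes Lyve1 rose (0.98 ± 0.23), and Kdr (-0.55 ± 0.10) and Cdh5 (-0.52 ± 0.12; -0.04 on another probe) fell, with sums of 33600 to 37200 and 31100 to 34100 on the low-fat diet and 27600 to 31000 and 26500 to 32100 on the high-fat diet. Of 7 cholangiocyte genes 4 rose, led by Spp1 (1.86 ± 0.33) and Tspan8 (2.0 ± 0.39), with sums of 6750 to 9340 and 7210 to 9680 against 20100 to 24500 and 13200 to 69800. The Spp1 probe made up 85% to 95.5% of these sums. Without it they were 934 to 1010 and 989 to 1080 on the low-fat diet and 1420 to 1680 and 925 to 3170 on the high-fat diet, where Het overlapped both low-fat groups. Among the hepatocyte genes Cps1 (-1.03 ± 0.11), Hnf4a (-0.62 ± 0.12; -0.02 and -0.20 on other probes) and Ttr (-0.68 ± 0.16) fell and 0 rose. Of the adipocyte genes 1 of 5 passed the filter, Cfd, and it rose (1.67 ± 0.55). The part of each of these shifts in the members' differences was not tested.

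Het high-fat replicate 3 also stood high on several of these lists. The summed activated stellate signal was 75000 in replicate 3, above 10 of the other 11 mice, and its portal fibroblast, platelet and cholangiocyte sums likewise exceeded those of 10 others. These high sums were not particular to it. Another Het high-fat mouse was higher for activated stellate (82600), portal fibroblast (6280 against 6130) and cholangiocyte genes (69800 against 36600). For platelet genes a WT high-fat mouse was higher (1990 against 1890). The sums of endothelial and hepatocyte genes in replicate 3 were the lowest of the 12. Whether the cell makeup of these livers differs was not tested.

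Genes whose profile over the 12 mice was closest to a called member were found by the root-mean-square difference of the log2 profiles, each set to its own mean, among 14157 genes. For Tgfb1 they were Eif6, Capn1 and Renbp, with differences of 0.10 to 0.11. Tgfb2 was closest to Serpinb6b, Steap1 and the collagen gene Col5a2 (0.19 to 0.22). Pdgfrb was nearest to Cenpt, Pde4a and Rras (0.13 to 0.15), and the brightest Acta2 probe to Ddx1, Arf2 and Lhfp (0.08 to 0.11). Des was nearest to Esyt1, Gas8 and Cstad (0.12 to 0.13). Ctgf, whose high-fat mice spread widely, had more distant neighbours, among them Plat and Tmem45a (0.35 each).

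Promoter windows of 250 bases before the start were found for 6 of the 10 genes in RefSeq (GRCm38.p6). The Acta2 and Tgfb1 windows are shown because they differ most in their motifs: serum response factor binds the CArG box, in which CC and GG enclose 6 bases, at least 5 of them A or T; TEAD factors bind GGAATG and Sp1 binds GGGCGG. Capitals mark CArG boxes and GGAATG in Acta2 (chr19:34255374-34255623, minus strand) and GGGCGG on either strand in Tgfb1 (chr7:25686752-25687001, plus strand).
Acta2 promoter: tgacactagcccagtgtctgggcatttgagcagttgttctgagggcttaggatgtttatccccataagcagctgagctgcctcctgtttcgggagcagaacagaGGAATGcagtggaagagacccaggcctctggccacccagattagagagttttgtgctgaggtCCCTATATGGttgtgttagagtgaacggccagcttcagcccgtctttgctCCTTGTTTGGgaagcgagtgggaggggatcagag
Tgfb1 promoter: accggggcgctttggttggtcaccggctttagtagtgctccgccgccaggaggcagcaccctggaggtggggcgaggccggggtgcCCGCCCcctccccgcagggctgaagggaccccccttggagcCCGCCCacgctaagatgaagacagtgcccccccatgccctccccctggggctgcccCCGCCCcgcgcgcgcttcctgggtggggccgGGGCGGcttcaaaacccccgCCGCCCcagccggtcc
The Acta2 window held 2 CArG boxes, starting 84 and 34 bases before the start of the gene, and 1 GGAATG at 146 bases, and no other of the 6 windows held either motif. On both strands, 8.59% of 32851 such windows held a CArG box and 12.6% held GGAATG. The Tgfb1 window held 5 copies of GGGCGG and that of Des 2, against 1 or more in 32.7% of all windows. CAGAC, a core that SMAD proteins bind, occurred in the windows of Acta2, Pdgfra and Tgfb2 and in 42.2% of all windows. These matches describe letters and are not evidence of binding.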

How the data were processed

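Each array holds 1-colour (Cy3) signals of 60-base Agilent probes. The deposited scanner tables hold intensity values for which the submitters' processing notes name Agilent Feature Extraction 9.5. Processed intensity values are, per the file headers, background-subtracted, and a flag says which spots stand well above background. The deposited table of the whole series held the same intensity in 45018 of 45018 spots of every array, within a relative tolerance of 0.01%, on a linear scale and not centred, with medians over non-control spots of 78.3 to 163. Probe coordinates are those of the mm7 design, per the file headers.

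Each processed intensity was taken as log2 minus the log2 of its array's 75th percentile (975 to 2006), which no deposited file records as done. Control spots and 1344 outlier spots were left out and spots of a probe averaged. Probes were kept where all arrays of some group had them well above background, with values on at least 2 arrays per group. limma 3.58.1 in R 4.3.3 fitted 4 group means for 7 comparisons (8 residual and 2.99 prior degrees of freedom), two-sided, with Benjamini-Hochberg adjustment at 0.05. The fit was tested on simulated data. Exact two-sided permutation tests shuffled mice within strata (400 arrangements over both strata). Tables were made with Python 3.11.15.

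Labels call the mice biological replicates. Named genes are every member probe, Sirt1, at most 4 called genes of lowest p per list (more where named with a list's full count of those called, which was decided after their values were seen), and the 3 nearest profiles per called member. For list genes with several probes the brightest was used, and for named genes probes that disagree in sign or call are given. Where a gene is given without an adjusted p beside its difference, it was called unless stated otherwise. The 10 genes, the 20 lists and the alternatives were chosen with earlier results of these data known, so counts over them are descriptions. Replicate numbers were set as a block only as an alternative. Some genes and sequences that these rules would name are not reported here.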

Additional observations from a re-analysis of the deposited data

Results flagged for a closer look

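Probes outside the tests gave a signal on 1 array each, above all WT low-fat arrays. The dimmer Pdgfra probe read 26.8 in Het high-fat replicate 2, where it was well above background, against at most 8.01 in the WT low-fat mice. It read 10.4 to 19.5 in the other high-fat mice and 6.24 to 10.6 in the Het low-fat mice, in none of them well above background. The fifth Acta2 probe read 36.1 in Het low-fat replicate 1, against at most 6.13, and the 4 brighter Acta2 probes did not single out that mouse. The Lox probe read 26.8 in Het high-fat replicate 3, against at most 6.22, and that mouse was also the highest for Loxl2, at 1440. Each value is 1 spot on 1 array, with no replicate. Among 24 sets of 6 mice, the tested probes by diet, no mouse stood apart from its set by Dixon's test at its 95% critical value, which by chance marks about 1 set in 20.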

How the results depend on the processing

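The count of member probes called with diet over both genotypes, 7, was 6 to 9 under 8 other settings and 6 to 9 without any 1 array, and no difference of a called probe changed sign. With diet in WT the count of 1 became 3 with scaling to the median, 2 with the trend on GC content and brightness removed, 6 with the slide as a random block (within-slide correlation -0.18), 2 with a fit of only the groups compared, and 0 with no filter; without 1 array it was 0 to 3, and 0 without any 1 of WT high-fat replicates 1, 2 and 3 and WT low-fat replicates 1 and 3. With diet in Het the count of 4 was 0 to 6 under 9 other settings, with 0 in a fit of only the groups compared. It was 0 to 5 without 1 array, with 0 without Het high-fat replicate 1 or Het low-fat replicate 1 and 2 without Het low-fat replicate 2. The pathway and stellate genes called, 33, were 25 with no filter, 54 with the slide as a random block and 27 to 34 without 1 array. Genotype over both diets had exact permutation p under 0.05 for 2 probes, 0 with scaling to the median or the trend removed, and 0 to 3 without 1 array. Over single probes 924 of the recomputed differences stayed on their side of the threshold, 25 passed it anew and 35 no longer passed. The cause of these changes was not tested, beyond the smaller number of mice where some were left out.

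The slide as a random block raised the calls of the whole array from 7439 to 12810 for diet over both genotypes, so its larger counts are not particular to these genes. Leaving out the filter lowered them to 5411, with more probes tested. For diet in WT scaling to the median moved the median of all probes from -0.05 to 0.07 and the share of higher calls from 42.6% to 76.9%, and quantile normalization moved that share to 61.3%; in Het the share went from 45.9% to 57.0% with scaling to the median. Scalings left every called member higher on the high-fat diet.

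Deviations from the group means were not more alike in mice with the same replicate number (18 pairs, r from -0.47 to 0.46, 3 over 0.1) than in others (36 pairs, r from -0.49 to 0.54, 13 over 0.1). Of 12 mice 3 were closest to their own number. With 3 mice per group these correlations cannot exclude a pairing. With the replicate block 7, 1 and 3 member probes were called for diet over both genotypes, in WT and in Het, and 6273, 701 and 2626 probes of the whole array against 7439, 1439 and 3745. The number of arrays, 3 per group, limits the precision, and for Lox and 3 other probes the signal over background left no value to test.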
